A study of Drosophila melanogaster with 6 samples.

Results

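The transcripts described here encode 6 secreted proteins of the larval digestive tract of Drosophila melanogaster. They are the trypsins alphaTry and epsilonTry, the chymotrypsin-like protease Jon65Aiii, the lysozyme LysE and the predicted lipases CG6283 and CG6271. They were picked by name from 18780 features measured on the arrays, with their differences between irradiated and control larvae already known, and all 6 passed the filter on dim signals. Those differences are therefore given as a description, with no test.

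The fly gut breaks down food with secreted enzymes. Trypsins cut proteins after lysine and arginine, chymotrypsin-like proteases of the Jonah family cut after other residues, and lipases release fatty acids from dietary fat. Lysozymes split the cell wall of bacteria, and in the fly several of them are made in the midgut, where bacteria are part of the food. Such genes often lie in clusters of close relatives.

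RNA came from whole bodies of wild-type Oregon-R larvae, labelled as 5 days old. The 3 control samples received 0 Gy, and the 3 irradiated samples received chronic gamma radiation to a dose of 0.1 Gy, delivered at 16.7 mGy/h and begun at the first larval instar after 24 h of egg culture. Larvae of both groups were kept 20 to a vial, and both groups shared an incubator at 25 °C after treatment. Each sample was hybridised to 1 array, and the labels do not tell if the replicates are separate vials, so the spread between samples may be technical. Controls 1 to 3 and irradiated 1 lay on 1 slide, and irradiated 2 and irradiated 3 on another. Between 75.8% and 81.1% of gene spots were well above background on each array, and none was saturated. The number of arrays limits the precision.

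The sample was the whole larva, so the gut was not isolated. Of 73 genes on lists of digestive proteases, lysozymes, lipases and carbohydrases, only these 6 could be named among the features. None of 40 markers of midgut, peritrophic matrix, fat body, salivary gland, muscle, neurons and haemocytes could be named, so the tissue was not checked against other markers. In RNA of whole animals, a change in the share of gut cells and a change in RNA per cell cannot be told apart.

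In the order of genes along the chromosomes, several members lie beside each other or beside relatives. On arm 2R, alphaTry and epsilonTry are neighbours within a row of trypsin genes, with thetaTry before and betaTry after them. On arm 3L, LysE stands between LysD and LysP, and Jon65Aiii between Jon65Aiv and Jon65Aii. The lipase genes CG6283 and CG6271 lie on arm 3R with CG6277 between them. Each member had 1 probe, assigned by its RefSeq accession for 5 genes and by the cDNA clone LP07339 for LysE. Whether a probe also binds RNA of the relatives was not examined, because no probe sequences were used here, so each value is uncertain in that respect.

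Levels are given as log2 of the background-corrected signal relative to the 75th percentile of the same array, which stood at signals between 1288 and 1607. A level of 0 is thus the signal of a fairly bright spot. LysE and CG6283 were printed as 1 spot per array and the other members as 2 spots. Every spot of every member was well above background on all 6 arrays. The scanner software put the error of a single member spot at 10% of its signal, or 0.14 in log2 units.

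Jon65Aiii, a Jonah protease, had one of the brightest probes. It ranked between 67 and 75 from the top of about 32162 probes on the 6 arrays, with signals from 240739 to 295413. Rank describes the brightness of a probe, which also depends on its sequence, and not the number of transcripts. LysE ranked between 61 and 223, epsilonTry between 248 and 304, and alphaTry between 2034 and 2770. The lipase probes ranked lower, between 1879 and 3297 for CG6283 and between 6900 and 12038 for CG6271. Even the dimmest member was thus brighter than at least 62.6% of the probes on each array.

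**Figure D1:**
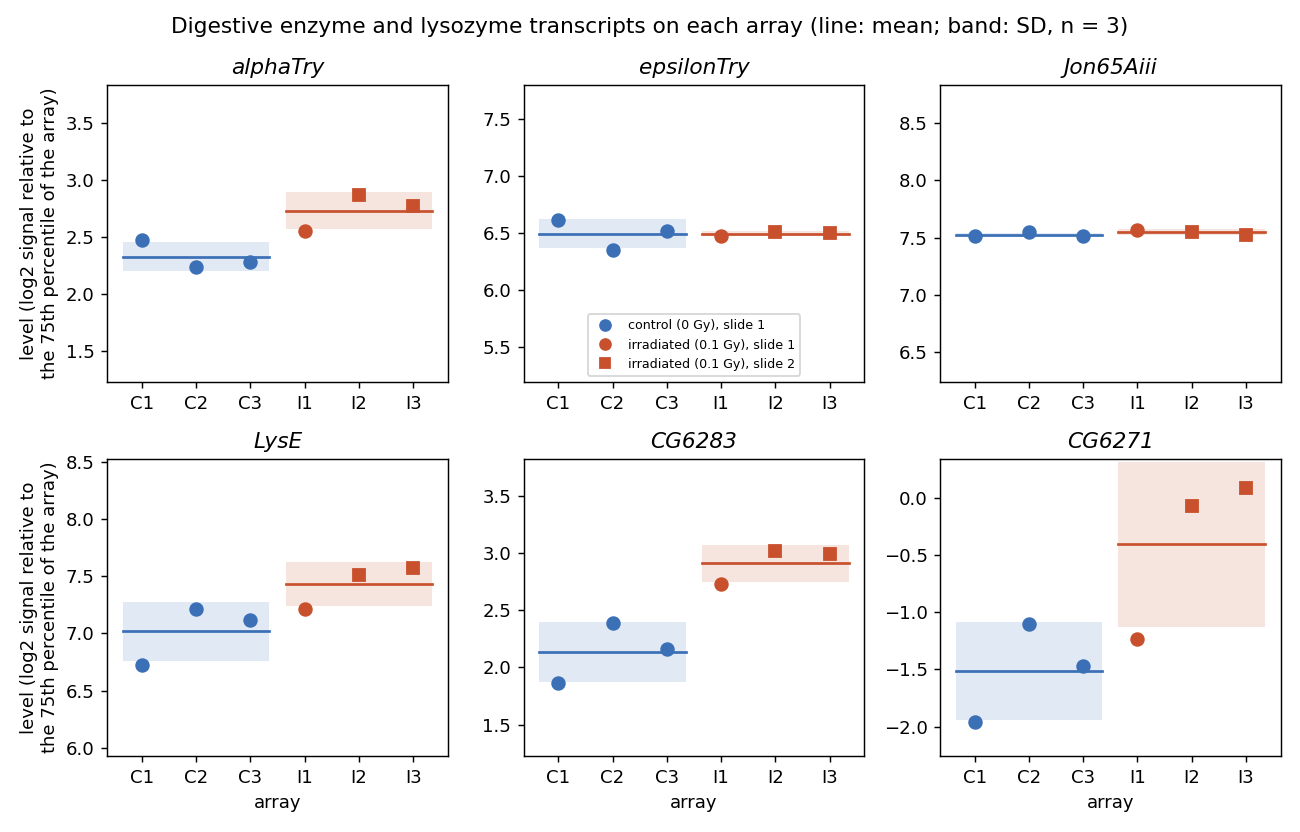
Level of each of the 6 transcripts on each array (y axis, log2 signal relative to the 75th percentile of the array, 2.6 units tall in every panel; C control, I irradiated; circles slide 1, squares slide 2; line mean, band SD, n = 3). Jon65Aiii stays between 7.51 and 7.57, while CG6271 runs from -1.96 to 0.083.

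Among the proteases, the trypsin gene alphaTry stood at 2.47, 2.24 and 2.28 in controls 1, 2 and 3. In irradiated 1, 2 and 3 it stood at 2.55, 2.87 and 2.78. Every irradiated array lay above every control array, although irradiated 1 exceeded control 1 by only 0.082. That is less than the error of 1 spot, though each level of alphaTry averages 2 spots. The mean was 2.33 ± 0.12 in controls and 2.73 ± 0.16 in irradiated larvae (SD, n = 3 each). The difference was 0.40 ± 0.11 SE or 1.32-fold. Here and below, the SE of a difference and its interval rest on the variance from limma. That variance is drawn towards the variance of all features, so the SE does not follow from the SDs of the gene alone. On the shared slide, irradiated 1 lay 0.22 above the control mean, and irradiated 2 and 3 lay 0.49 above it.

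The neighbouring trypsin gene epsilonTry behaved otherwise. It stood at 6.610, 6.353 and 6.519 in controls and at 6.471, 6.510 and 6.501 in irradiated larvae. The irradiated arrays all lay within the range of the controls. Its mean difference was 0.00034 ± 0.077 SE, with a 95% interval from -0.19 to 0.19, so that a fold change between 0.875 and 1.14 lies within the interval. The controls spread more widely than the irradiated arrays, with SDs of 0.13 and 0.020.

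Jon65Aiii had the narrowest range of the members. Its levels were 7.51, 7.55 and 7.52 in controls and 7.57, 7.55 and 7.52 in irradiated larvae, and the groups overlapped. The difference was 0.023 ± 0.045 SE (95% interval -0.090 to 0.14). With the 75th percentile as the scale, all 6 arrays lay within 0.060, or 1.04-fold, and 0.596% of features had a smaller range. The median range over all features was 0.33. This narrow range depends on the scale: it was 0.052 with normexp on the median signal, 0.11 with quantile normalization, 0.23 with the array median and 0.45 with the authors' value table. The columns of that table had medians from 0.892 in control 1 to 1.17 in irradiated 2, so its arrays do not share a common median.

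Its duplicate spots differed by more than its arrays did. On every array the second spot of Jon65Aiii read higher than the first, by 0.30 to 0.46 in log2 units, which is more than the whole range of the gene over the arrays. Taken singly, the spots ranged over 0.10 and 0.11, and their differences between the groups were 0.016 and 0.030. In the uncorrected median pixel signal, the second spot was lower than the first on all arrays, with log2 differences between -0.22 and -0.053. Those uncorrected differences were larger for alphaTry (-0.59 to -0.47) and epsilonTry (-0.39 to -0.22). The processed signal may rest on another pixel statistic than the median, and the part of the software's corrections was not tested. For comparison, the 2 spots of a probe differed by a median of 0.062 to 0.066 per array over all probes printed as 2 spots, and 4.81% to 7.65% of these probes differed by at least 0.3. In the processed signal, the spots of alphaTry and CG6271 differed by no more than 0.064 and 0.059, and those of epsilonTry by up to 0.15.

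**Figure D2:**
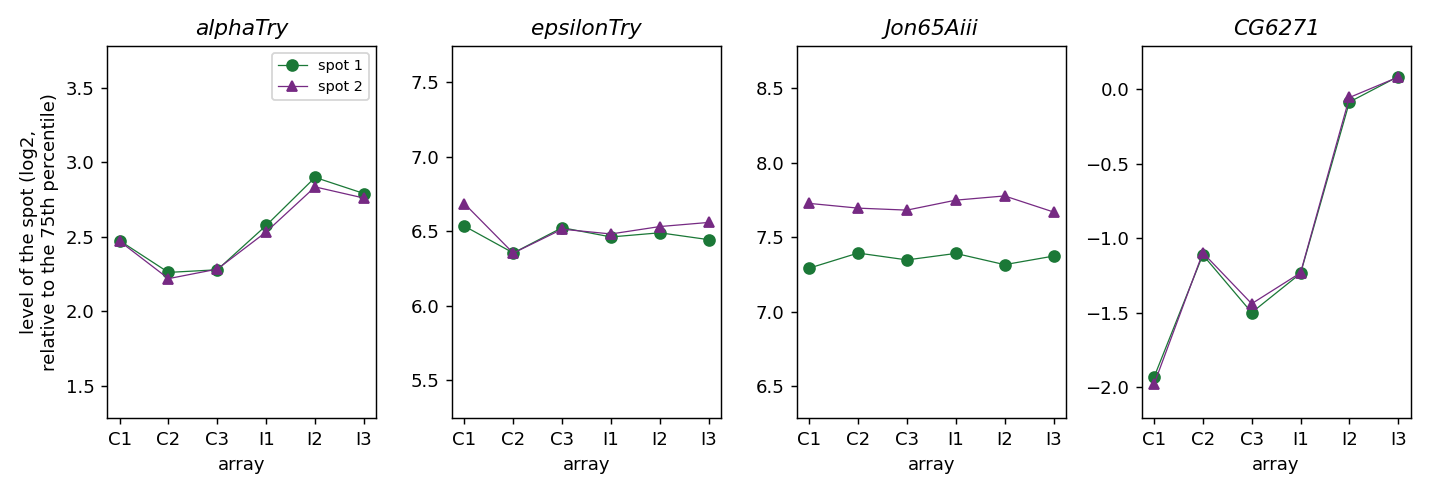
Level of each of the 2 spots (green circles, spot 1; purple triangles, spot 2) of the 4 genes printed as duplicates, on control (C) and irradiated (I) arrays; the y axis is log2 signal relative to the 75th percentile and spans 2.5 units in every panel. The spots of Jon65Aiii run apart by 0.30 to 0.46 on every array, whereas those of CG6271 coincide within 0.059.

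The lysozyme gene LysE stood at 6.73, 7.21 and 7.12 in controls and at 7.22, 7.51 and 7.57 in irradiated larvae. The groups did not overlap, but irradiated 1 lay only 0.0085 above control 2, which is less than the error of 1 spot. With normexp on the median signal and with the authors' value table the groups overlapped, the lowest irradiated minus the highest control array being -0.015 and -0.084. Means were 7.02 ± 0.26 and 7.43 ± 0.19 (SD, n = 3 each), a difference of 0.42 ± 0.16 SE or 1.33-fold. On the shared slide the excess of irradiated 1 over the control mean was 0.20, and that of irradiated 2 and 3 was 0.52. Control 1 was low, and without it the difference was 0.27.

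LysE and Jon65Aiii, both among the brightest 223 probes on every array, lay at opposite ends of the spread on this scale. Over the 6 arrays LysE ranged over 0.85, or 1.80-fold. Of 264 features with a mean level of at least 6, a limit set after the values were seen, the median range was 0.24. Jon65Aiii had the 4th smallest range of these, epsilonTry the 144th and LysE the 263rd.

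**Figure D3:**
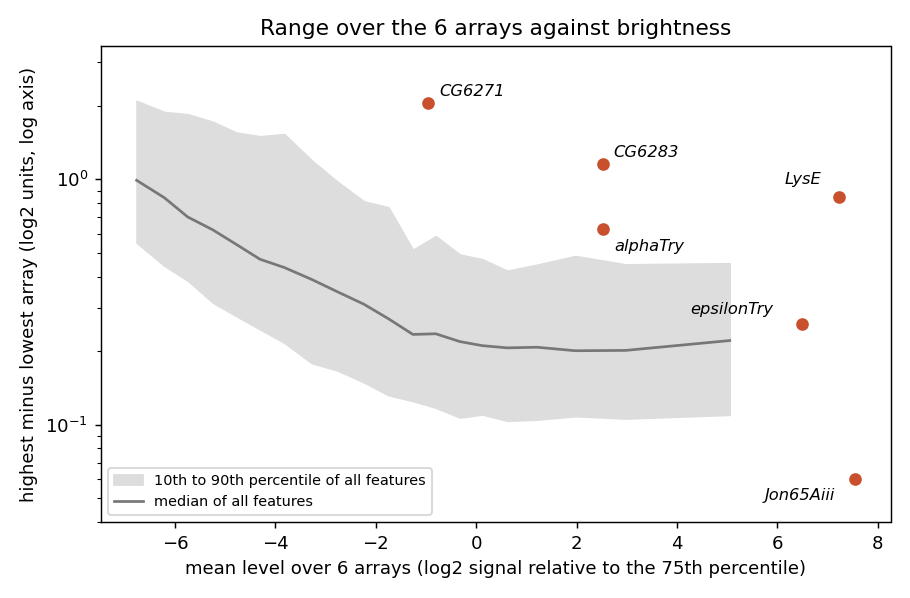
Highest minus lowest array (y axis, log2 units on a log scale) against mean level (x axis, log2 signal relative to the 75th percentile) for the 6 genes (orange points), with the median (line) and the 10th to 90th percentile (band) of all 18780 features in 20 bins of level. Jon65Aiii lies at 0.060 and LysE at 0.85 on this scale although both are bright, and CG6271 lies highest at 2.04.

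The lipase gene CG6283 stood at 1.86, 2.39 and 2.16 in controls and at 2.73, 3.01 and 2.99 in irradiated larvae. Its groups were the furthest apart among the members, with 0.34 between the highest control and the lowest irradiated array. Means were 2.14 ± 0.26 in controls and 2.91 ± 0.16 in irradiated larvae (SD, n = 3 each), a difference of 0.77 ± 0.16 SE or 1.71-fold. Irradiated 1 lay 0.59 above the control mean on the same slide, and irradiated 2 and 3 lay 0.87 above it.

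Its relative CG6271 varied most. The levels were -1.96, -1.11 and -1.47 in controls, and -1.24, -0.071 and 0.083 in irradiated 1, 2 and 3. Irradiated 1 lay inside the range of the controls, while irradiated 2 and 3 stood above all of them. Group means were -1.51 ± 0.43 and -0.41 ± 0.72 (SD, n = 3 each), a difference of 1.104 ± 0.41 SE or 2.15-fold (95% interval 1.05 to 4.38). The interval rests on the variance from limma, and CG6271 was picked with this difference known. That the interval lies above 1 is therefore not read as a test. On the shared slide the difference was 0.28, whereas irradiated 2 and 3 lay 1.52 above the control mean and 2.36-fold above irradiated 1. Slide thus moved with the level of CG6271, and its part in the difference was not tested.

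Read against all features, limma called 0 of 18780 between the groups at an adjusted p of 0.05 (0%), and none of the 6 members was called. At an unadjusted p under 0.05 stood 1864 features (9.93%). For 3 of the 6 members (alphaTry, LysE and CG6283) every irradiated array exceeded every control array. Such a separation held, among all features, for 17.4% in either direction and for 8.23% with irradiated larvae higher. A mean at least 2-fold higher was measured for 1 member, CG6271, and for 0.564% of all features. Because the members were picked with this contrast known, nothing is read from these counts. The median difference over all features was -0.0018.

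The spread within groups separated the members as well. The pooled SD within groups was 0.022 for Jon65Aiii, 0.093 for epsilonTry and 0.14 for alphaTry. It was 0.22 for CG6283, 0.23 for LysE and 0.59 for CG6271, against a median of 0.11 over all features. CG6271 exceeded 93.9% of features in this spread and Jon65Aiii 1.04%.

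Whether the enzymes vary together was examined over the 6 arrays for all 15 pairs. These genes were picked partly for being higher in irradiated larvae, which favours an r above 0, and the arrays of a group share their treatment and partly their slide. Correlations over all arrays are therefore a description, with no test. The highest were those among LysE and the lipases. Pearson's r was 0.95 between LysE and CG6283 (Spearman's rho 0.94), 0.96 between LysE and CG6271 (rho 0.94) and 0.92 between CG6283 and CG6271 (rho 0.89). With the 2 arrays farthest from the median of the first gene left out, r was 0.90, 0.99 and 0.83. With 3 other scalings or background corrections and with the authors' value table, r of these pairs stayed between 0.90 and 0.97.

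**Figure D4:**
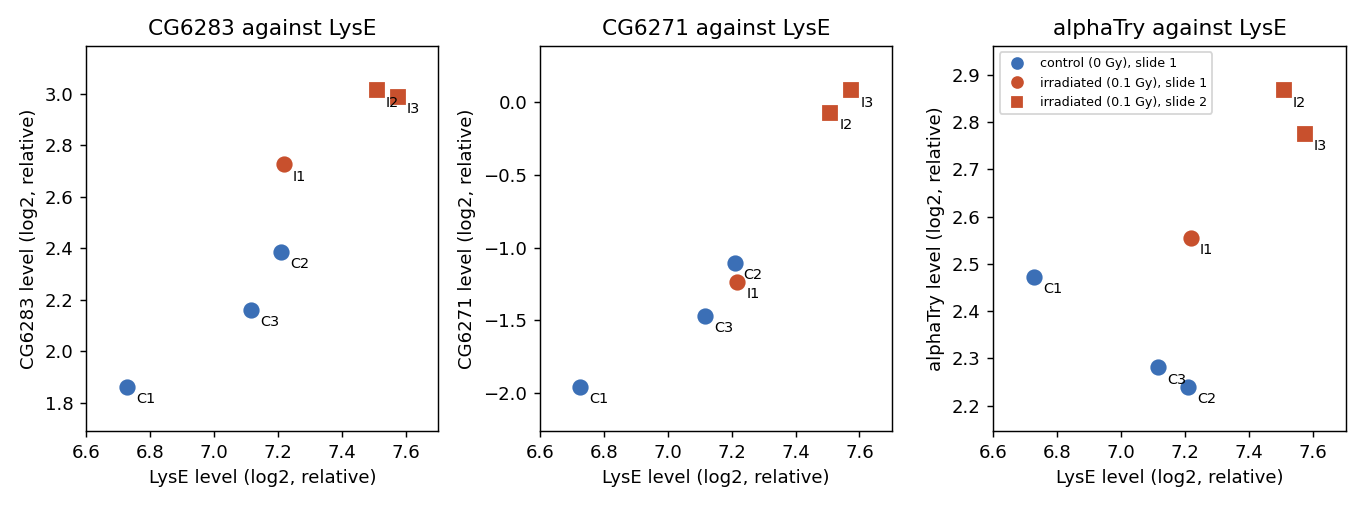
Levels of CG6283, CG6271 and alphaTry (y axes) against LysE (x axes) on the 6 arrays, in log2 units relative to the 75th percentile; blue controls, orange irradiated, circles slide 1, squares slide 2. CG6283 and CG6271 are higher where LysE is higher, within the controls too (r = 0.95 and 0.96 over all arrays), whereas in controls alphaTry is highest where LysE is lowest.

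Deviations from the group means leave the difference between the groups out. Over these, r was 0.96 between LysE and CG6283, 0.91 between LysE and CG6271 and 0.87 between CG6283 and CG6271. Permuted within groups, a two-sided test added after the data were seen, the exact p-values were 0.0556, 0.0278 and 0.0556. The smallest p this permutation can give is 0.0278, and no pair passed after adjustment over the 15 (exact permutation, smallest adjusted p = 0.208). A pass would need most of the 15 pairs to reach that smallest p together, so nothing is concluded from its absence. The permutation also treats irradiated 1 as exchangeable with irradiated 2 and 3, which lay on another slide. Within the controls, all on 1 slide, the 3 genes kept one order of arrays. Control 1 was lowest, control 3 intermediate and control 2 highest. These 3 genes were set apart after their r was seen, and few orders of 3 arrays are possible. The share of all features with this order is not given here, so nothing is concluded from it. LysE deviated there by -0.29, 0.19 and 0.099 in controls 1, 2 and 3, CG6283 by -0.27, 0.25 and 0.024, and CG6271 by -0.45, 0.41 and 0.041. Among irradiated arrays, irradiated 1 was the lowest for all 3, and it is also the only one on the slide of the controls.

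**Figure D5:**
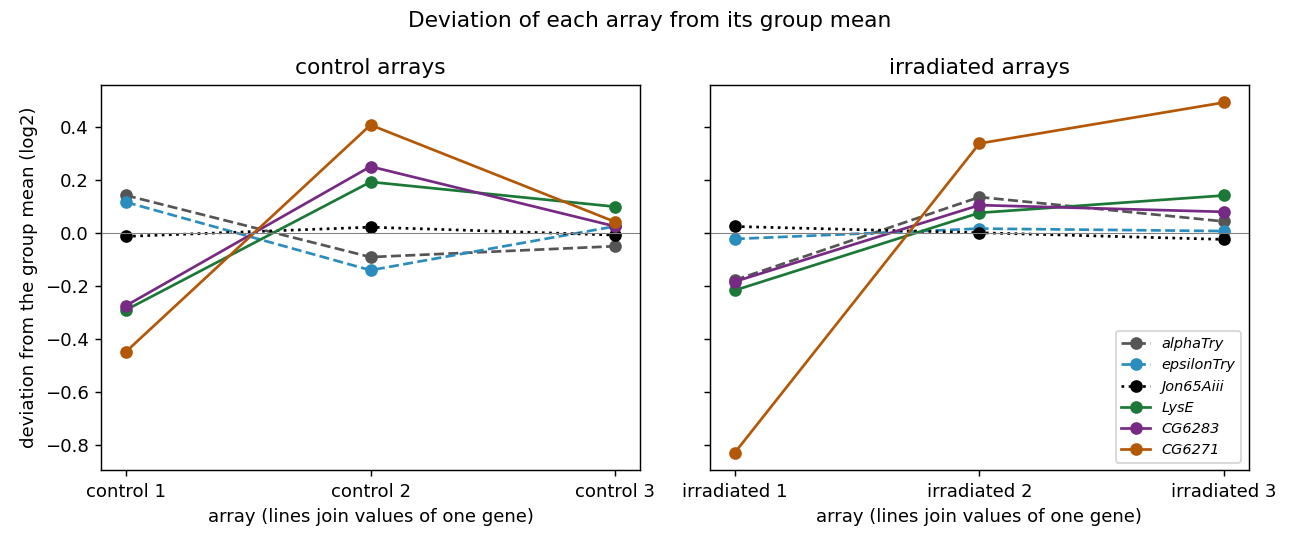
Deviation of each array from the mean of its group (y axis, log2 units) for the 6 genes, controls left and irradiated right. LysE, CG6283 and CG6271 (solid lines) are lowest in control 1 and in irradiated 1, while alphaTry and epsilonTry (dashed) are highest in control 1.

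The trypsins took another order in the controls. There, alphaTry deviated by 0.14, -0.091 and -0.050, highest in control 1 where LysE and the lipases were lowest. Over all arrays its r was 0.62 with LysE, 0.76 with CG6283 and 0.76 with CG6271, and over deviations it was -0.068, -0.10 and 0.33. The latter lay between -0.25 and 0.66 over the same alternatives. The neighbours alphaTry and epsilonTry had an r of 0.33 (rho 0.14), and of 0.64 over deviations. With the alternatives these lay between 0.34 and 0.78, and between 0.58 and 0.90 over deviations. The pairs of epsilonTry with LysE, CG6283 and CG6271 had r of -0.40, -0.31 and -0.24. With the authors' value table, whose columns differ in their medians, they had r of 0.57, 0.49 and 0.52. The sign of these r thus depends on the setting, and the part of the column medians was not tested. Jon65Aiii had r between -0.57 and 0.54 with the others, and its r with epsilonTry went from -0.57 to 0.56 with the array median and 0.82 with the value table. Its r with LysE and with CG6271 also changed sign with the setting.

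The RNA lncRNA:roX1, made in males only, was lowest in irradiated 1 and control 3. Irradiated 1, 2 and 3 stood at 0.48, 1.34 and 1.67, the same order as for LysE and CG6271. In the controls, at 1.51, 1.73 and 0.83, control 3 was lowest, whereas LysE and the lipases were lowest in control 1. The other listed male RNA, lncRNA:roX2, had the same order of arrays within each group. It stood at -1.53, -1.44 and -2.40 in controls and at -2.42, -1.78 and -1.34 in irradiated larvae. The share of males in each sample is not stated, and its part in these values was not tested.

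Named genes with profiles most like each member were sought among 331 other named features by r over the 6 arrays. For LysE these were Abl (0.94), Mur11Da (0.94) and Uba1 (0.88). The lipase CG6283 was most like Zip42C.2 (0.92), lncRNA:alphagamma-element:CR32865 (0.92) and CG9312 (0.92), and CG6271 most like CG9672 (0.95), Jupiter (0.90) and f-cup (0.89). For alphaTry the nearest were CG15533 (0.93), retn (0.91) and spri (0.91). Profiles nearest to epsilonTry were those of Hakai (0.89), UQCR-C2 (0.89) and Art7 (0.89), and nearest to Jon65Aiii those of CG10494 (0.94), Acp65Aa (0.92) and CR30029 (0.90). The dimmest of these listed genes were Mur11Da, with levels from -8.56 to -6.81, and spri, from -6.99 to -5.91. Among features binned by level, the dimmest bin had a median level of -6.76. Its median range was 0.99, against 0.33 over all features. The part of noise near background in the r of Mur11Da and spri was not tested.

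These likenesses rest on 6 arrays that share treatment and slide, and an r of at least 0.9 was not rare. Over all other features it was reached by 1.67% with LysE, 1.86% with CG6283, 1.70% with CG6271, 1.12% with alphaTry, 0.809% with epsilonTry and 0.596% with Jon65Aiii. The median r of all features with LysE was 0.082. No list member other than the 6 was available, so these profiles could not be set beside further digestive enzymes.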

How the data were processed

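RNA of whole larvae was hybridised in 1 colour (Cy3) to 6 Agilent arrays. The deposited scanner files give an intensity per spot, corrected for background within the array and not scaled between arrays. Per the file headers, spots were read with Feature Extraction 11.5.1.1 on a design annotated on dm3, while version 9.1 is named in the submitters' processing notes. In the authors' value table each probe has a linear ratio to its own median over the arrays. The labels also name blood lysis and globin removal, and whether these were applied to larvae is not known.

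Outlier spots and controls were dropped. Processed signals were put on the log2 scale relative to the 75th percentile of the array and averaged over the spots of a probe. Probes had to be well above background, in a share of at least 0.5 of their spots, on each of the 3 arrays of either group. This left 23818 probes in 18780 features. Names came from the RefSeq gene table by accession or synonym (546 of 32162 probes matched 1 symbol, 3 several and 31613 none). That table follows another assembly, so no coordinates are given.

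The groups were compared with limma 3.58.1 in R 4.3.3 without a block, with Benjamini-Hochberg adjustment over all features. The SEs and intervals of the differences use limma's variance, which combines the spread of each gene with that of all features. For Jon65Aiii the SE was thus 0.045, although its pooled SD within groups was 0.022. Pairs of members were compared by Pearson's r, with an exact permutation test within groups, in Python with scipy 1.17.1. The members, lists and tests were chosen with earlier results of these data known. The 6 members are named with their values, together with the 3 named genes most like each by Pearson's r. Alternatives were the scaling, the background correction, the value table, the filter on dim probes, the slide, a replicate block, leaving out each array and the brightest probe. Over all features, deviations from the group means of arrays with the same replicate number had correlations of -0.27, -0.20 and -0.60. Other pairings of the arrays were not compared, and the irradiated deviations also hold any difference between slides. Members differed in how the replicate block changed the SE. With the replicate block the SE was 0.0699 for LysE, 0.0774 for CG6283 and 0.192 for CG6271, against 0.162, 0.156 and 0.412 without it. It was larger with the block for alphaTry, epsilonTry and Jon65Aiii. Whether replicate numbers pair the samples was not tested for these genes.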

Additional observations from a re-analysis of the deposited data

How the results depend on the processing

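Only 3 arrays per group, 1 of them irradiated on the slide of the controls, limit what the differences can show. LysE and CG6283 rest on 1 spot per array, and all members were bright enough that the filter on dim probes did not touch them. The differences of alphaTry, Jon65Aiii, LysE, CG6283 and CG6271 stayed above 0 under all 16 alternatives, and that of epsilonTry was above 0 under 10 and below 0 under 6 (from -0.070 to 0.093). Not all of these alternatives are separate. Changing the filter on dim probes, the replicate block and the brightest probe return the main difference by design, since each member has 1 bright probe. The slide block and the shared slide alone give the same estimate. Nothing is therefore read from these counts of signs. With a fixed slide block, or on the shared slide alone, alphaTry was at 0.223, LysE at 0.200, CG6283 at 0.591, Jon65Aiii at 0.0470, epsilonTry at -0.0225 and CG6271 at 0.276. With the authors' value table Jon65Aiii was at 0.117. Leaving out each array gave 0.334 to 0.490 for alphaTry, -0.0699 to 0.0583 for epsilonTry, 0.0109 to 0.0353 for Jon65Aiii, 0.271 to 0.525 for LysE, 0.637 to 0.899 for CG6283 and 0.859 to 1.518 for CG6271.

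No feature was called in any fit except 7 with the value table, none of them a member, and leaving out each array gave 0 to 0. The replicate block gave 0 calls and changed no call. Features whose groups do not overlap numbered 3264, but 1973 with the array median, 936 with the value table, 9722 on the shared slide alone and 4691 to 5587 without each array, where fewer arrays are compared. Permuting over all 6 arrays uses the group differences by which members were picked and so supports nothing. There, 3 of the 15 pairs had an adjusted p under 0.05, but 1 with the array median (LysE with CG6283) and 2 with normexp on the median signal. Permuted within groups, 0 passed, but so few orders are possible there that a pass was nearly out of reach. Leaving out an array leaves fewer than 6, so pairs were not tested there. The mean signal was not used for normexp. The cause of the other changes was not tested.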
